A study of Mus musculus with 80 samples.

Results

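The 49 genes described here make the machinery of DNA replication and of mitosis, and they were found by their symbols, which were listed with earlier results of these data known. All 49 were found in both deposited gene tables, among 18877 genes in the table of the DEHP study and 17672 genes in the table of the DCA study. RNA was sequenced from livers of male mice of the B6C3F1 hybrid strain, aged 4 weeks when the studies were run. In the DEHP study, with livers collected in 2013, the feed held 0, 1500, 3000 or 6000 ppm of di(2-ethylhexyl) phthalate (DEHP), a plasticizer, for 7 days, with 4 mice per dose. In the DCA study, with livers collected in 1994, the drinking water held 0, 1, 2 or 3.5 g/L of DCA (dichloroacetic acid), which forms when drinking water is chlorinated, with 6 mice per dose, and the length of exposure is not given in the labels. From every animal 1 library was made of frozen mixed lobes, and another of named lobes fixed in formalin and embedded in paraffin (FFPE), so that 80 libraries came from 16 DEHP animals and 24 DCA animals.

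Before a cell divides, the Mcm2 to Mcm7 helicase is loaded at replication origins with the help of Cdc6 and Cdt1, and it opens the DNA for the polymerases, the sliding clamp Pcna and the enzymes that supply nucleotides. Mitosis follows when the kinase Cdk1, bound to cyclin B, is switched on, after which the Aurora and Polo kinases, the kinetochore and spindle proteins and the anaphase ligase carry the chromosomes apart. Most hepatocytes of an adult liver rest outside the cycle, while the liver of a young mouse still grows, and chemicals that activate the nuclear receptor PPAR alpha, as metabolites of DEHP do in rodents, are known to make rodent hepatocytes enter the cycle.

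The summed expected counts per library ran from 16582972 to 29550624 in DEHP frozen liver, from 11673020 to 18866126 in DEHP FFPE liver and from 3067666 to 16890024 in DCA frozen liver, where the 3 lowest totals were those of 2 g/L animals 73, 74 and 75. The DCA FFPE libraries were shallow, with a median of 504136 and a lowest total of 109292. Albumin, which hepatocytes make, was at 22532 FPKM in DEHP control livers and 36934 FPKM in DCA control livers. Over all genes, the frozen library of 14 of 16 DEHP animals deviated from its dose group most like the FFPE library of the same animal, and the exceptions were 35A and 67C of 3000 ppm. Over the members alone this held in 13 of 16, with 63A, 60A and 29B as the exceptions. A bulk library does not separate a larger number of dividing cells from more of these RNAs in each cell.

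Levels per gene length were low for most members in control livers. On the FPKM scale of the deposited table, Mcm10 was the highest member in both studies, at 23.3 ± 7.0 in DEHP controls (SD, n = 4) and 44.5 ± 19.1 in DCA controls (SD, n = 6), and Pcna followed at 12.7 ± 0.2 and 11.9 ± 1.2. The phosphatase gene Cdc25c was the lowest, at 0.0075 and 0.090, and its row did not pass the count filter in the fits within 1 study that the results below come from, although it did without the 3 shallow DCA libraries. Tyms, the thymidylate synthase, was at 12.5 ± 1.4 in DEHP controls (SD, n = 4), but the 2 deposited count tables gave it summed DEHP counts that differed 16.9 times, so its DEHP values are uncertain. The same ratio was 2.79 for Cdt1, 2.14 for Pole, 1.78 for Birc5, 1.59 for Ube2c, 1.55 for Pcna, 1.54 for Ccnb1 and 0.541 for Aurka, and within 1.5 times for the others. The annotation of the mm10 build places a protein-coding gene over 13 members on the other strand, among them Mcm7, Ccnd1, Tk1, Ccna2, Cdc20 and Kif20a, and over Cdt1 and Foxm1 on the same strand. Whether the counting used the strand is not given in the sources used here, so part of these members' counts may come from the overlapping gene.

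Mitosis genes were higher at DEHP 6000 ppm than at 0 ppm in frozen liver, and the helicase genes to a smaller extent. The calls below depended on sequencing run and on animal 44A. With run as a term 1 member was called, and without 44A 7 were called. Of 48 members tested, 25 rose and none fell against 0 ppm, by edgeR's quasi-likelihood test at an adjusted p under 0.05, beside 7.05% of all genes tested that rose. The median log2 fold change was 1.23 over the members and -0.03 over all genes. By role, 10 of 12 mitotic cyclins, kinases, checkpoint and ligase genes rose with a median log2 fold change of 2.38, 8 of 10 spindle, kinetochore and chromosome genes with a median of 2.33, and 5 of 11 licensing and helicase genes with a median of 0.87. Only Pole of the 5 polymerase, clamp and clamp loader genes rose, only Uhrf1 of the 2 genes that maintain DNA methylation, and none of the 4 nucleotide supply genes or the 4 genes of G1 cyclins and E2f1 passed the threshold.

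**Figure D1:**
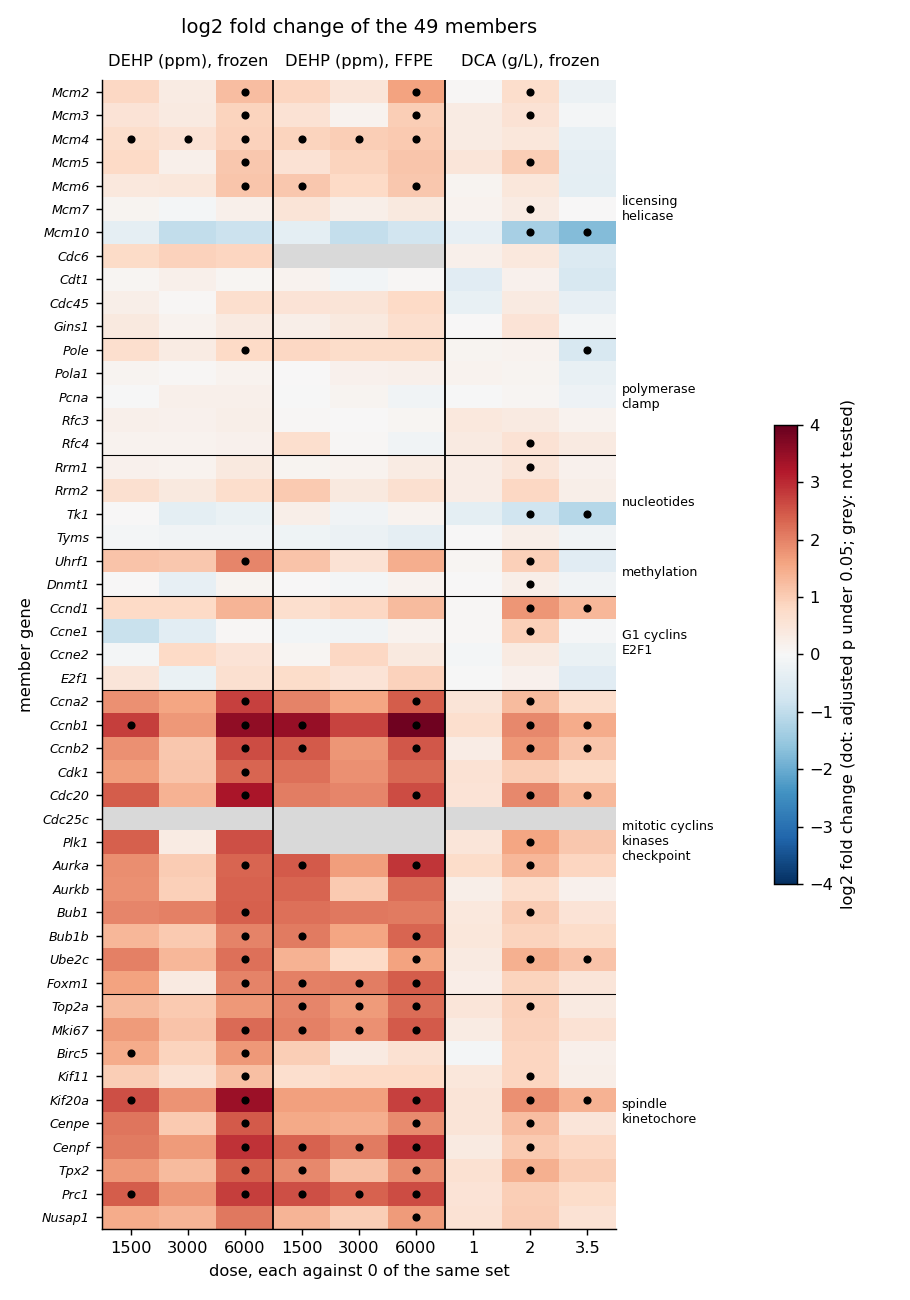
Log2 fold change of each of the 49 members (rows, grouped by role) at each dose against 0 of the same set (columns), for DEHP in frozen and FFPE liver and DCA in frozen liver; a dot marks an adjusted p under 0.05 and grey a gene that was not tested. The mitosis rows are the reddest in the DEHP columns, Mcm10 and Tk1 are blue at DCA 2 and 3.5 g/L, and most helicase rows are pale blue at 3.5 g/L.

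Mcm4, a subunit of the replicative helicase, was at 5.78, 7.51, 7.28 and 6.74 CPM (counts scaled to a common library size) in frozen liver of the 6000 ppm animals 29B, 44A, 64C and 8C, against 3.35, 3.82, 4.66 and 2.49 CPM in controls 32A, 45C, 63A and 75A. Every 6000 ppm library lay above every control library. The other helicase subunits that rose were Mcm2, by 1.25 ± 0.27 on the log2 scale (SE), Mcm6 by 1.12 ± 0.33, Mcm5 by 1.09 ± 0.31 and Mcm3 by 0.89 ± 0.26, while Mcm7, Mcm10, Cdc6, Cdt1, Cdc45 and Gins1 did not pass the test.

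Pole, the catalytic subunit of the leading-strand polymerase, had 5.20, 7.51, 6.34 and 5.79 CPM in the 6000 ppm animals in the same order, against 4.33, 2.93, 4.01 and 3.06 CPM in controls. The groups did not overlap, and the log2 fold change was 0.79 ± 0.23 (edgeR, adjusted p = 0.0318). Pcna, the sliding clamp and a common stain for cells in S phase, had 16.4, 21.1, 16.1 and 18.4 CPM at 6000 ppm, against 15.3, 16.0, 15.6 and 16.2 CPM in controls. These groups overlapped, and the log2 fold change of Pcna was 0.19 ± 0.10 (edgeR, adjusted p = 0.262). Rrm1, the large subunit of ribonucleotide reductase, had 10.2, 14.5, 11.9 and 12.7 CPM at 6000 ppm, against 9.46, 7.50, 9.75 and 10.5 CPM in controls. Its log2 fold change of 0.41 ± 0.15 was not called (edgeR, adjusted p = 0.0843), and 29B lay within the range of the controls.

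Uhrf1, which guides the maintenance methyltransferase to newly replicated DNA, had 0.717, 1.92, 0.606 and 1.09 CPM at 6000 ppm, against 0.0985, 0.594, 0.268 and 0.0638 CPM in controls. The lowest treated library lay just above the highest control, 45C, and the log2 fold change was 1.97 ± 0.58 (edgeR, adjusted p = 0.0349). Uhrf1 had few counts in the controls, and it was not called in the following fits. Its log2 fold change was 1.53 ± 0.60 when 44A was left out (edgeR, adjusted p = 0.154). Fitting the run gave 2.05 ± 0.69 (edgeR, adjusted p = 0.111), and the compared groups alone gave 1.96 ± 0.58 (edgeR, adjusted p = 0.0672). FFPE liver gave 1.45 ± 0.62 (edgeR, adjusted p = 0.141). The methyltransferase Dnmt1 itself did not pass the test in frozen liver at 6000 ppm. Ccnd1, cyclin D1, which couples growth signals to entry into the cycle, had 24.1, 50.6, 30.7 and 49.3 CPM at 6000 ppm, against 7.19, 29.8, 17.5 and 5.49 CPM in controls. Control 45C lay above treated animal 29B, and the log2 fold change of Ccnd1, 1.35 ± 0.44, was not called (edgeR, adjusted p = 0.0586).

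Ccnb1, cyclin B1, had 2.20, 13.5, 0.882 and 1.72 CPM in 6000 ppm animals 29B, 44A, 64C and 8C, against 0.148, 0.742, 0.344 and 0.255 CPM in the controls. All 4 treated libraries lay above the controls, and 44A stood far above the other treated animals. Cdk1, its kinase partner, had 1.88, 9.93, 0.827 and 1.99 CPM at 6000 ppm, against 0.837, 0.742, 0.879 and 0.383 CPM in controls. For Cdk1 animal 64C lay within the control range, and the log2 fold change was 2.34 ± 0.58 (edgeR, adjusted p = 0.0149). The other mitotic regulators that rose were Cdc20 by 3.26 ± 0.92, Ccna2 by 2.72 ± 0.64, Ccnb2 by 2.59 ± 0.66, Bub1 by 2.40 ± 0.74, Aurka by 2.32 ± 0.55, Ube2c by 2.20 ± 0.60, Foxm1 by 2.00 ± 0.56 and Bub1b by 1.99 ± 0.54, all as log2 fold changes with SE. Plk1 and Aurkb, which were tested and are not in that list, did not pass.

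Mki67, which coats mitotic chromosomes and encodes the Ki-67 antigen used to count cycling cells, had 11.8, 52.9, 6.45 and 12.3 CPM at 6000 ppm, against 4.04, 5.75, 4.28 and 3.13 CPM in controls. The groups did not overlap, and the log2 fold change was 2.27 ± 0.51 (edgeR, adjusted p = 0.00772). Kif20a, a kinesin of the central spindle, had 2.60, 18.5, 2.09 and 3.21 CPM at 6000 ppm, against 0.493, 0.668, 0.765 and 0.511 CPM in controls. Kif20a showed the smallest adjusted p of all members in this comparison, 0.00127 by edgeR, with a log2 fold change of 3.41 ± 0.59. Top2a, the topoisomerase that untangles sister chromatids, had 5.15, 23.8, 4.36 and 5.79 CPM at 6000 ppm, against 3.35, 4.38, 2.45 and 1.47 CPM in controls. Animal 64C lay just below control 45C, and the log2 fold change of Top2a was 1.73 ± 0.56 (edgeR, adjusted p = 0.0545). Cenpf and Prc1, a kinetochore protein and a crosslinker of spindle microtubules, rose by 2.90 ± 0.63 and 2.76 ± 0.62 on the log2 scale.

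Animal 44A carried much of the 6000 ppm values. The CPM summed over the 23 mitosis members was 243 in its frozen library and 148 in its FFPE library, while the other 6000 ppm animals ran from 33.2 to 51.0 in frozen liver and from 30.5 to 50.8 in FFPE liver. Without 44A, 7 members rose in frozen liver, Ccnb1, Cenpf, Kif20a, Mcm2, Mcm4, Mki67 and Prc1, and the log2 fold change of Kif20a was 2.09 ± 0.26 (edgeR, adjusted p = 0.000203). Leaving out control 63A left 15 members called and leaving out control 75A left 14. Sequencing run and lane are read here from marks in the library names of the deposited counts, which the labels do not explain. By these marks the frozen libraries were also spread over sequencing runs that followed the doses in part, and only 1 run held both controls and a 6000 ppm animal. Within that run the summed mitosis level was 51.0 CPM in 8C, against 25.3 CPM in 45C and 17.9 CPM in 63A, and Kif20a was at 3.21 CPM, against 0.668 and 0.765 CPM. With sequencing run as a term, only Kif20a rose among the members, by 2.58 ± 0.54 on the log2 scale (edgeR, adjusted p = 0.0153), and the values of Mki67 and Mcm4 were 1.39 ± 0.53 and 0.76 ± 0.22 without passing the test. Shares of all genes in these refits are not given here, so whether members lost calls more often than other genes cannot be read from them.

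**Figure D2:**
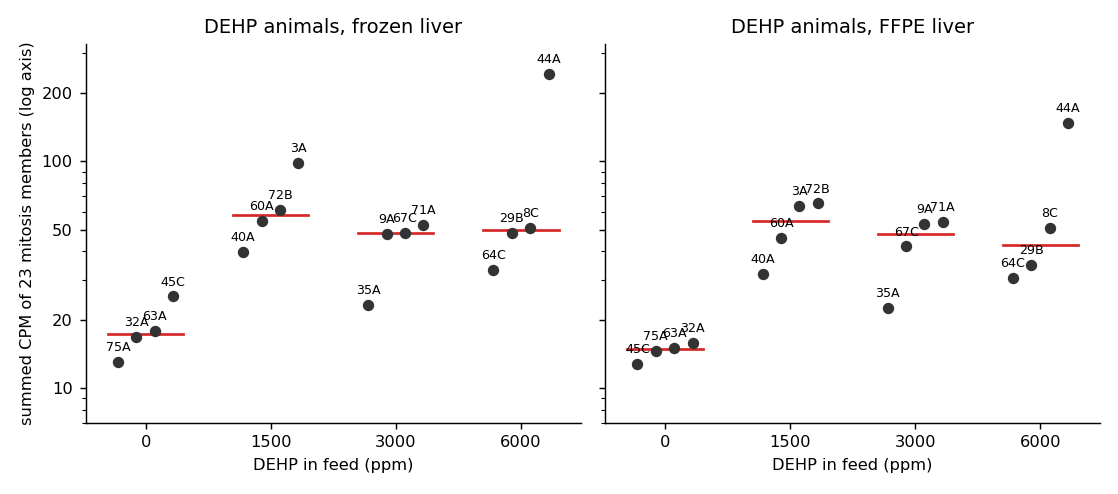
CPM summed over the 23 mitosis members (log axis) in each DEHP animal by dose in feed, in frozen liver (left) and FFPE liver (right); points are libraries with the animal's name and red lines are medians. Animal 44A is the highest in both preparations and 35A the lowest treated animal in both, while the controls lie between 13.02 and 25.3 in frozen liver and between 12.8 and 15.8 in FFPE liver.

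Mitosis members were above the controls at the lowest dose as well. The summed mitosis level had a median of 17.3 CPM at 0 ppm, 57.7 CPM at 1500 ppm, 48.1 CPM at 3000 ppm and 49.7 CPM at 6000 ppm in frozen liver, and of 14.8, 54.6, 47.5 and 42.8 CPM at these doses in FFPE liver. Every 1500 ppm library lay above every control in both preparations, and the only treated library within the control range was 35A in frozen liver, at 23.2 CPM. The run of that library held no other treated library, and its controls 32A and 75A were lower, at 16.8 and 13.02 CPM. At 1500 ppm in frozen liver 5 members rose, Mcm4, Birc5, Prc1, Kif20a and Ccnb1, beside 4.34% of all genes tested, and at 3000 ppm only Mcm4 rose, by 0.58 ± 0.18 on the log2 scale (edgeR, adjusted p = 0.0446), beside 8.17%. With sequencing run as a term only Kif20a rose at 1500 ppm, by 2.65 ± 0.55 on the log2 scale (edgeR, adjusted p = 0.0246), and no member was called at 3000 ppm, with 2 at an unadjusted p under 0.05. Leaving out 1 of the 8 animals left between 1 and 3 members called at 1500 ppm, with 1 left without control 75A or treated animals 3A or 60A. At 3000 ppm none was left without 75A, 67C, 71A or 9A, and 4 were called without 35A, of which 2 rose and 2 fell. Median log2 fold changes of the members were 0.82 and 0.59 at these doses, with -0.03 over all genes at both, and all doses were set against the same controls. None of 48 members differed between 6000 ppm and 3000 ppm in frozen liver by edgeR, where 0% of all genes rose. At an unadjusted p under 0.05 there were 15 members, and DESeq2 called none. The share of all genes at that unadjusted threshold is not given here, so the 15 cannot be read as a trait of the members. In FFPE liver the same comparison also called none of 46 members by edgeR or DESeq2, where 0% of all genes rose at the adjusted threshold. There 4 members had an unadjusted p under 0.05.

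In frozen liver of the lower doses, libraries are given in the order 3A, 40A, 60A and 72B for 1500 ppm and 35A, 67C, 71A and 9A for 3000 ppm. Mcm4 had 7.50, 5.63, 5.40 and 5.08 CPM at 1500 ppm and 5.35, 5.30, 6.13 and 4.77 CPM at 3000 ppm. Kif20a had 4.49, 3.37, 2.88 and 3.99 CPM at 1500 ppm and 1.57, 2.38, 2.19 and 2.45 CPM at 3000 ppm. For both genes every treated library lay above the highest control. Ccnb1 had 3.44, 2.67, 2.24 and 2.51 CPM at 1500 ppm and 0.441, 1.77, 1.71 and 1.22 CPM at 3000 ppm. Mki67 had 22.3, 9.61, 12.4 and 12.6 CPM at 1500 ppm and 5.54, 9.65, 12.1 and 11.1 CPM at 3000 ppm. For Ccnb1 and Mki67 animal 35A alone lay within the range of the controls. Cdk1 had 3.11, 1.96, 1.74 and 2.51 CPM at 1500 ppm and 1.07, 1.31, 2.31 and 1.52 CPM at 3000 ppm, all above the controls. Top2a had 12.7, 2.11, 6.91 and 6.47 CPM at 1500 ppm and 2.96, 7.35, 7.33 and 6.84 CPM at 3000 ppm, with 40A and 35A within the range of the controls. Uhrf1 had 1.19, 0.352, 0.320 and 0.609 CPM at 1500 ppm and 0.881, 0.493, 0.398 and 0.633 CPM at 3000 ppm, and at both doses 2 libraries lay below control 45C. Pole had 7.12, 5.48, 4.71 and 5.48 CPM at 1500 ppm, all above the controls, and 2.96, 3.903, 4.22 and 6.79 CPM at 3000 ppm, where only 9A was above them. Ccnd1 had 31.7, 31.6, 27.2 and 15.9 CPM at 1500 ppm and 26.7, 45.1, 17.2 and 16.96 CPM at 3000 ppm. Pcna had 15.4, 15.1, 16.4 and 15.8 CPM at 1500 ppm and 16.8, 20.95, 18.3 and 16.6 CPM at 3000 ppm. Rrm1 had 12.2, 8.75, 10.7 and 10.3 CPM at 1500 ppm and 8.43, 11.1, 10.6 and 10.97 CPM at 3000 ppm. The ranges of Ccnd1 and Rrm1 overlapped those of the controls at both doses, and the range of Pcna did so at 1500 ppm.

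Promoter sequence was available for part of the members. The promoter tables, 250 bases before to 50 bases after each gene's start, held 38 of the 49 members. The cell cycle homology region (CHR, TTTGAA or TTCGAA), the CCAAT box (CCAAT) and 4 forms of the E2F site (TTTGGCGC, TTTCCCGC, TTTGCCGC and TTTCGCGC) were searched on both strands. TTCGAA reads the same on both strands, and E2F forms can overlap each other on opposite strands. A CHR was present in 13 of 17 mitosis members (76.5%), in 5 of 21 other members (23.8%) and in 19.4% of all 27025 promoters. An E2F form was present in 1 of 17 mitosis members (5.88%), in 8 of 21 others (38.1%) and in 2.32% of all promoters. The CCAAT box was present in 88.2%, 66.7% and 37.9% of these sets, and a CHR together with a CCAAT box in 76.5%, 23.8% and 7.7%. The sequences of Top2a and Cdk1 are shown as mitosis members with both of these motifs, with an E2F form in Cdk1 besides, and those of Mcm6 and Mcm5 as helicase members with E2F forms. They come from RefSeq on GRCm38.p6, read 5′ to 3′ on the strand of the gene, at chr11:99024140-99024439 (minus) for Top2a, chr10:69352863-69353162 (minus) for Cdk1, chr1:128359656-128359955 (minus) for Mcm6 and chr8:75109259-75109558 (plus) for Mcm5. Capitals mark CHR and CCAAT matches in Top2a, all 3 motifs in Cdk1, and E2F matches alone in Mcm6 and Mcm5, where a longer run of capitals holds overlapping matches on both strands. No test of these shares was made, and a match describes letters and shows no binding.
Top2a: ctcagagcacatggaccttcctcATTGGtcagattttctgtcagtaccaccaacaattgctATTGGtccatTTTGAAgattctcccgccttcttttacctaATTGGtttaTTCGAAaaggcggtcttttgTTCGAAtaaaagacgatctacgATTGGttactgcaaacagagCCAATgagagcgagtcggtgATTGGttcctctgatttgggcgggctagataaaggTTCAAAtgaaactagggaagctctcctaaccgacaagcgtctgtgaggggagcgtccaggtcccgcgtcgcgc
Cdk1: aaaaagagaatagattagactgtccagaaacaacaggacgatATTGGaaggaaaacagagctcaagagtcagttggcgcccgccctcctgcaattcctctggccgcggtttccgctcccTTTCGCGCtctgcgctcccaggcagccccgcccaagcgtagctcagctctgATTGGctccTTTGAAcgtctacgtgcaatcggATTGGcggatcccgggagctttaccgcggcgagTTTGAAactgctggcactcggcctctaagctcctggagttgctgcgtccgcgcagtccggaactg
Mcm6: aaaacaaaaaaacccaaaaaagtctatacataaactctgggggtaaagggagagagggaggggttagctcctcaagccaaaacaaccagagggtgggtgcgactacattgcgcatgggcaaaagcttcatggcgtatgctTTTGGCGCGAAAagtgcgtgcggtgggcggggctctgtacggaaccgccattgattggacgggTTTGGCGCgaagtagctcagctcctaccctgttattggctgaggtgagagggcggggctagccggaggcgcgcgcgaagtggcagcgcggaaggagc
Mcm5: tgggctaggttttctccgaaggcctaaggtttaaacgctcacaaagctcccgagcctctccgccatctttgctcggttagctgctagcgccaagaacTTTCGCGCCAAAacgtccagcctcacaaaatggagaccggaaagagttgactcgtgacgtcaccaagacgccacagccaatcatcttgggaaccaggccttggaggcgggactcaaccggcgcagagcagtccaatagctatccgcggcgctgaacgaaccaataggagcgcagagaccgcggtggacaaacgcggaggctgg

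In FFPE liver of the DEHP animals, each run that held a 6000 ppm library also held a control. At 6000 ppm 20 of 46 members tested rose and none fell, beside 7.94% of all genes that rose. Of these, 18 also rose in frozen liver, which is 90% of the FFPE calls and 72% of the frozen calls. Both preparations come from the same animals, with 44A highest in both, so this overlap is no independent support. The overlap of calls over all genes is not given here, so it cannot be called particular to the members. Mki67 was at 7.87, 31.02, 7.55 and 12.995 CPM in FFPE liver of 29B, 44A, 64C and 8C, against 2.74, 2.78, 2.65 and 2.72 CPM in controls 32A, 45C, 63A and 75A. The controls lay within a narrow range below all treated libraries, and the log2 fold change was 2.44 ± 0.42 (edgeR, adjusted p = 0.00104). Within runs, 8C had 12.995 CPM of Mki67 against 2.74 CPM in 32A, 64C had 7.55 CPM against 2.78 and 2.72 CPM in 45C and 75A, and 29B and 44A had 7.87 and 31.02 CPM against 2.65 CPM in 63A. With sequencing run as a term 18 members rose, and without 44A 9 members rose, Aurka, Bub1b, Cenpf, Foxm1, Kif20a, Mcm2, Mcm4, Mki67 and Top2a. The share of all genes that rose in these refits is not given here.

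Top2a, which was not called in frozen liver, had 1.88, 13.4, 4.08 and 6.66 CPM in FFPE liver at 6000 ppm, against 1.89, 1.14, 1.66 and 0.777 CPM in controls, and its log2 fold change was 2.25 ± 0.51 (edgeR, adjusted p = 0.00769). Animal 29B had about the level of control 32A. Mcm4 was at 5.56, 5.91, 4.85 and 4.86 CPM at 6000 ppm, against 1.56, 2.99, 3.04 and 2.50 CPM in controls, with no overlap, and rose by 1.06 ± 0.21 on the log2 scale (edgeR, adjusted p = 0.00338). Ccnb1 was at 0.795, 6.68, 0.599 and 0.819 CPM in the 6000 ppm animals, against 0 CPM in controls 32A and 45C and 0.166 and 0.389 CPM in 63A and 75A. Its counts in controls were too few for a firm fold change. Summed over Mcm2 to Mcm7 the FFPE level ran from 24.9 to 38.4 CPM at 6000 ppm, against 14.01 to 18.3 CPM in controls. At 1500 ppm 12 members rose in FFPE liver, beside 4.55% of all genes, and at 3000 ppm 6 rose, beside 6.15%, with Mki67 at 2.01 ± 0.42 and 1.83 ± 0.42 on the log2 scale. Without control 75A or treated animal 3A, 3 members rose at 1500 ppm, and without control 63A or treated animal 9A 2 rose at 3000 ppm. Of the members called with all animals, 3 at 1500 ppm (25% of the FFPE and 60% of the frozen calls) and Mcm4 at 3000 ppm (16.7% and 100%) were also called in frozen liver. The overlap over all genes is not given at these doses either.

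Levels of some members differed between FFPE and frozen DEHP control livers, at shares near or below those of all genes. With the animal as a replicate block, 3 of 47 members were higher in FFPE than in frozen controls, beside 14.6% of all genes, and 10 were lower, beside 16.7%. The higher ones were Birc5 by 1.25 ± 0.26, Tyms by 0.92 ± 0.11 and Cdt1 by 0.81 ± 0.23 on the log2 scale, and these are 3 of the genes whose counts differed most between the deposited tables. Pcna fell by 0.88 ± 0.13 in FFPE controls (edgeR, adjusted p = 7.66e-05), Top2a fell by 0.98 ± 0.28 and Rfc4 by 0.98 ± 0.33, and the others that fell were Gins1, Mcm7, Rfc3, Mki67, Pola1, Mcm4 and Rrm1. The effect of 6000 ppm was not found to differ between FFPE and frozen liver in any of 47 members by edgeR, beside 0% of all genes, and DESeq2 also called none. At an unadjusted p under 0.05 there was 1 member, Birc5, whose effect was smaller by 1.02 ± 0.35 on the log2 scale in FFPE liver. Leaving out control 45C left 5 members called between the preparations, leaving out 32A left 6 and leaving out 63A left 8. The part of sequencing run in these levels was not tested.

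At DCA 2 g/L many members were higher than at 0 g/L in frozen liver, and cyclin D1 had the smallest p. All controls lay in another lane than the 2 g/L libraries. Against 0 g/L, 24 of 48 members rose, beside 15.5% of all genes, and 2 fell, beside 13.7%. The risers were 8 of 12 mitotic regulators, 6 of 10 spindle and chromosome genes, 4 of 11 licensing and helicase genes, 1 of 5 polymerase and clamp genes, 1 of 4 nucleotide supply genes, both methylation genes and 2 of 4 genes of G1 cyclins and E2f1. With 1 riser each, the polymerase and nucleotide groups were near the share of all genes. The median log2 fold change was 0.86 over the members and -0.01 over all genes. Ccnd1 had 68.9, 88.7 and 135 CPM at 2 g/L, as the lowest, median and highest of 6 libraries, against 19.1, 30.05 and 37.7 CPM at 0 g/L. The groups were far apart, and the log2 fold change was 1.75 ± 0.20 (edgeR, adjusted p = 5.06e-07). At 1 g/L Ccnd1 ran from 23.1 to 34.0 CPM, within the range of the controls.

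Kif20a had 5.63, 7.83 and 15.3 CPM at 2 g/L, against 2.38, 2.86 and 3.16 CPM at 0 g/L, with no overlap, and rose by 1.84 ± 0.39 on the log2 scale (edgeR, adjusted p = 0.000977). Ccnb1 had 2.81, 6.54 and 9.49 CPM at 2 g/L, against 1.12, 1.67 and 2.58 CPM at 0 g/L, and rose by 1.92 ± 0.47 (edgeR, adjusted p = 0.00309). Top2a had 13.4, 19.9 and 21.8 CPM at 2 g/L, against 7.20, 9.30 and 13.1 CPM at 0 g/L, and rose by 0.95 ± 0.32 (edgeR, adjusted p = 0.0288). For these 3 genes every 2 g/L library exceeded every control. Mki67 had 20.3, 36.3 and 56.3 CPM at 2 g/L, against 14.6, 19.5 and 28.2 CPM at 0 g/L. Its groups overlapped, and its log2 fold change of 0.91 ± 0.36 was not called (edgeR, adjusted p = 0.0556), nor was that of Cdk1, 0.99 ± 0.38 (edgeR, adjusted p = 0.0517). Uhrf1 had 2.08, 3.42 and 4.69 CPM at 2 g/L, against 0.971, 1.51 and 2.52 CPM at 0 g/L, and rose by 0.96 ± 0.32 (edgeR, adjusted p = 0.0241).

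Mcm10 and Tk1 went the other way. Mcm10, a helicase cofactor, had 15.8, 26.3 and 56.8 CPM at 2 g/L, against 39.8, 67.8 and 145 CPM at 0 g/L, and its log2 fold change was -1.31 ± 0.30 (edgeR, adjusted p = 0.00204). Tk1, the thymidine kinase of dividing cells, had 4.32, 4.98 and 9.69 CPM at 2 g/L, against 6.80, 11.5 and 14.01 CPM at 0 g/L, and its log2 fold change was -0.78 ± 0.22 (edgeR, adjusted p = 0.00968). In both genes the groups overlapped at their edges. Without the 3 shallow 2 g/L libraries neither passed the test, with log2 fold changes of -0.98 ± 0.36 for Mcm10 (edgeR, adjusted p = 0.0609) and -0.60 ± 0.26 for Tk1 (edgeR, adjusted p = 0.113). Without 2 g/L animal 76, 12 members rose and 2 fell. The Mcm10 row was the highest of the 49 per length in control livers, and Tk1 is overlapped on the other strand by Afmid.

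At 3.5 g/L fewer members were higher than in controls, although more of all genes were. Against 0 g/L, 6 of 48 members rose, beside 21.9% of all genes, and 3 fell, beside 21.1%. The risers were Ccnb1, Kif20a, Ccnd1, Cdc20, Ube2c and Ccnb2, of which Ccnd1 had 35.8, 72.9 and 98.8 CPM at 3.5 g/L and rose by 1.32 ± 0.20 on the log2 scale (edgeR, adjusted p = 8.08e-06). Kif20a, at 3.08, 5.07 and 15.1 CPM at 3.5 g/L, rose by 1.40 ± 0.39 (edgeR, adjusted p = 0.00489), with its lowest library inside the range of the controls. The genes that fell were Mcm10, with a log2 fold change of -1.74 ± 0.30 (edgeR, adjusted p = 5.24e-05), Tk1 with -1.13 ± 0.21 (edgeR, adjusted p = 0.000133) and Pole with -0.65 ± 0.21 (edgeR, adjusted p = 0.0139). Without 3.5 g/L animal 102, 12 members rose and 3 fell. Pole had 2.60, 4.01 and 5.53 CPM at 3.5 g/L, against 4.86, 6.64 and 7.56 CPM at 0 g/L.

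Animals of 1 dose differed widely in their mitosis level. The summed mitosis level at 3.5 g/L was 240 and 211 CPM in animals 98 and 99, and ran from 50.8 to 94.3 CPM in the other 4. Ccnb1 followed this, with 10.2 and 10.8 CPM in 98 and 99 and between 2.31 and 2.43 CPM in the other 4. At 1 g/L the sum was 148 and 189 CPM in animals 53 and 54, the only frozen DCA libraries from a separate run, and ran from 50.2 to 90.7 CPM in the other 4. None of 48 members was called at 1 g/L against 0 g/L by edgeR, where 4.11% of all genes rose. At an unadjusted p under 0.05 there were 2 members, without a share of all genes to set beside them, and DESeq2 called none. By the marks in the library names, all controls shared 1 lane that held no 2 or 3.5 g/L library, so at these doses the lane cannot be told apart from the dose. The 2 g/L libraries of the shallow lane had 155, 79.1 and 129 CPM of summed mitosis members, against 217, 139 and 229 CPM in the 2 g/L libraries of the deeper lane, and without the shallow lane 17 members rose at 2 g/L and none fell.

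**Figure D3:**
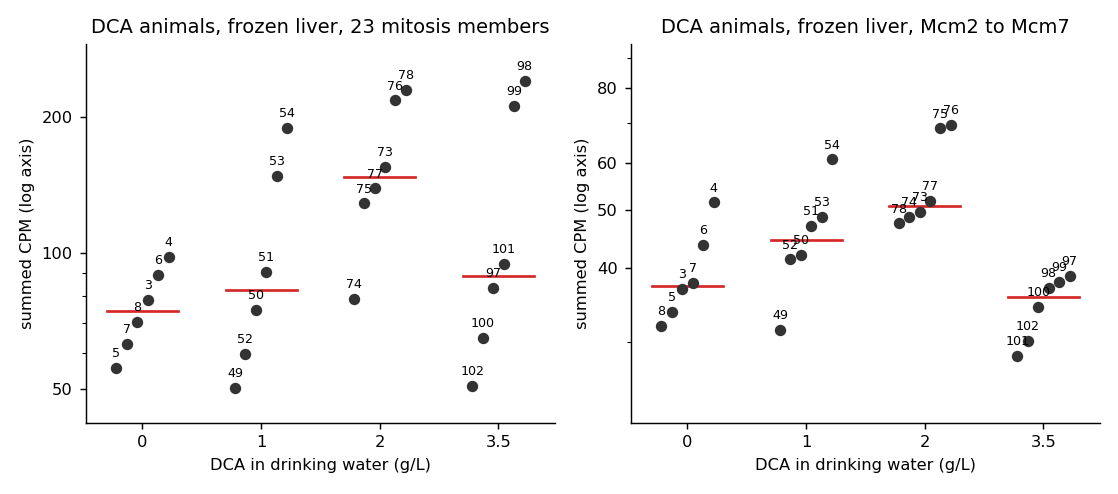
CPM summed over the 23 mitosis members (left) and over Mcm2 to Mcm7 (right), on log axes, in each frozen DCA liver by dose in drinking water; points are libraries with the animal's number and red lines are medians. The mitosis sums spread from 50.8 to 240 at 3.5 g/L, while the Mcm sums at 3.5 g/L lie between 28.5 and 38.7, all below the 47.5 to 69.4 at 2 g/L.

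The replication genes were lower at 3.5 g/L than at 2 g/L, and here all 3.5 g/L libraries shared a lane with 2 g/L animals 76, 77 and 78. Of 48 members 9 fell and none rose, beside 5.13% of all genes that fell. They were Mcm2, Mcm3, Mcm4, Mcm5 and Mcm6 of the helicase, Pole, Uhrf1, Dnmt1 and Ccne1. The median log2 fold change was -0.49 over the members and 0.00 over all genes, and none of the 48 members had a value above 0. None of the 22 tested mitotic and spindle members was called. Mcm5 had 1.88, 2.41 and 4.01 CPM at 3.5 g/L, against 5.01, 6.40 and 8.79 CPM at 2 g/L, and its log2 fold change was -1.32 ± 0.24 (edgeR, adjusted p = 0.00105). Uhrf1 had 0.408, 1.34 and 1.67 CPM at 3.5 g/L, against 2.08, 3.42 and 4.69 CPM at 2 g/L, and its log2 fold change was -1.42 ± 0.33 (edgeR, adjusted p = 0.00715). For both genes the 2 groups did not overlap. Summed over Mcm2 to Mcm7, the level was between 28.5 and 38.7 CPM at 3.5 g/L, against 69.4, 51.9 and 47.5 CPM in the 2 g/L animals of the same lane and 49.6, 48.8 and 68.6 CPM in those of the shallow lane. In 98 and 99, the animals of highest mitosis level, the Mcm sum was 37.0 and 38.0 CPM. Both comparisons of 2 g/L, with 0 g/L and with 3.5 g/L, use the same 2 g/L libraries.

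**Figure D4:**
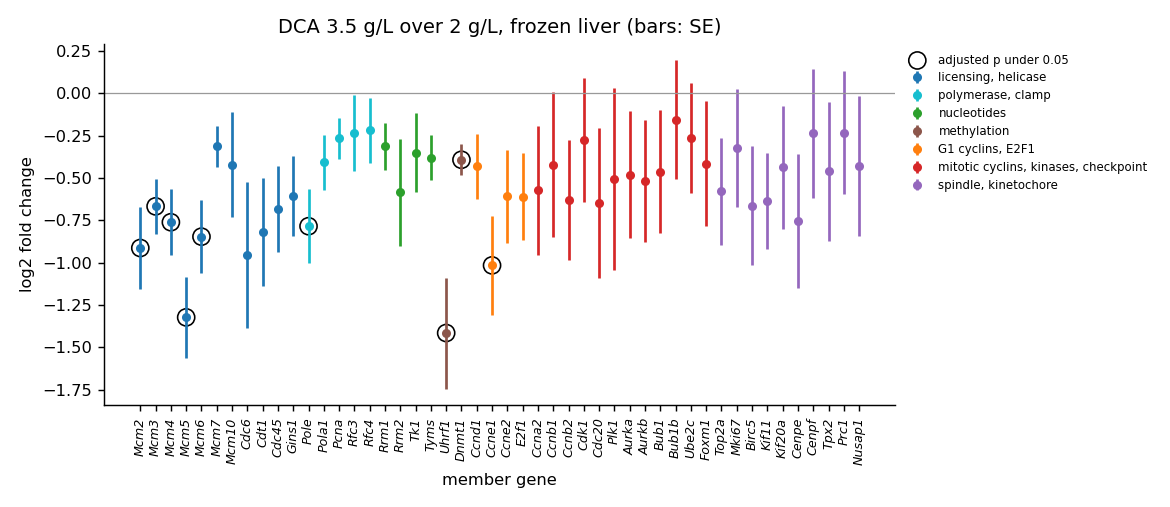
Log2 fold change of 48 members (x axis, coloured by role) at DCA 3.5 g/L over 2 g/L in frozen liver; bars are SE and circles mark an adjusted p under 0.05. All points lie below 0, and the 9 circled genes are helicase, polymerase, methylation and G1 cyclin genes.

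DCA FFPE liver could not answer these questions for most members. Only Mcm10 and Ccnd1 had enough counts to be tested there, and neither was called at 1, 2 or 3.5 g/L by edgeR or by DESeq2, beside 0.105%, 0.251% and 0.21% of all genes that rose. At an unadjusted p under 0.05 there was 1 member at 2 g/L, Mcm10, and none at the other doses. Summed over the 23 mitosis members, the level had a median of 0 CPM at 3.5 g/L and 24.9 CPM at 0 g/L, and a value of 0 in such a library means no count among few. Against frozen controls, 4 of 39 members tested were lower in FFPE controls, Mcm7, Rfc3, Tpx2 and Cdc20, beside 1.38% of all genes. DESeq2 called 1, and without control 4 only 1 was lower. Members could pass the count filter of this fit through their frozen counts alone, and Tpx2 was at 0 in every DCA FFPE library. A lower FFPE value was thus largely set in advance, and no difference in level is read from these calls.

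The top doses of the 2 chemicals were set side by side in frozen liver. DEHP was in feed at 6000 ppm for 7 days, and DCA in drinking water at 3.5 g/L for a time not given. Dose, route, time, year and run therefore differ with the chemical. The DCA controls also lay in another lane than the 3.5 g/L libraries, so the DCA effect cannot be told apart from lane. The log2 effect was higher for DEHP than for DCA in 8 of 49 members and lower in none, beside 6.48% of all genes that were higher. These were Uhrf1 by 2.41 ± 0.63, Mcm6 by 1.54 ± 0.39, Mcm2 by 1.48 ± 0.37, Mcm5 by 1.45 ± 0.39, Pole by 1.45 ± 0.32, Mcm4 by 1.22 ± 0.28, E2f1 by 1.10 ± 0.35 and Mcm3 by 0.99 ± 0.29. For Pole, which had the smallest adjusted p (edgeR, 0.00236), the effect was 0.79 ± 0.23 with DEHP and -0.65 ± 0.21 with DCA. Without DEHP animal 44A 5 members were called, and without DCA animal 98, DEHP animal 64C, DCA animal 99 or DEHP animal 29B 18, 14, 13 and 13 were called. Among mitosis members none was called with all animals, with Kif20a nearest at 2.02 ± 0.73 (edgeR, adjusted p = 0.0593). The effect on Ccnd1 was 1.35 ± 0.44 with DEHP and 1.32 ± 0.20 with DCA, and the difference of 0.03 ± 0.45 (edgeR, adjusted p = 0.974) has an SE too wide to show that they are alike. Control levels also differed between the studies, with Mki67 between 3.13 and 5.75 CPM in DEHP controls and between 14.6 and 28.2 CPM in DCA controls, levels that come from separate tables.

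**Figure D5:**
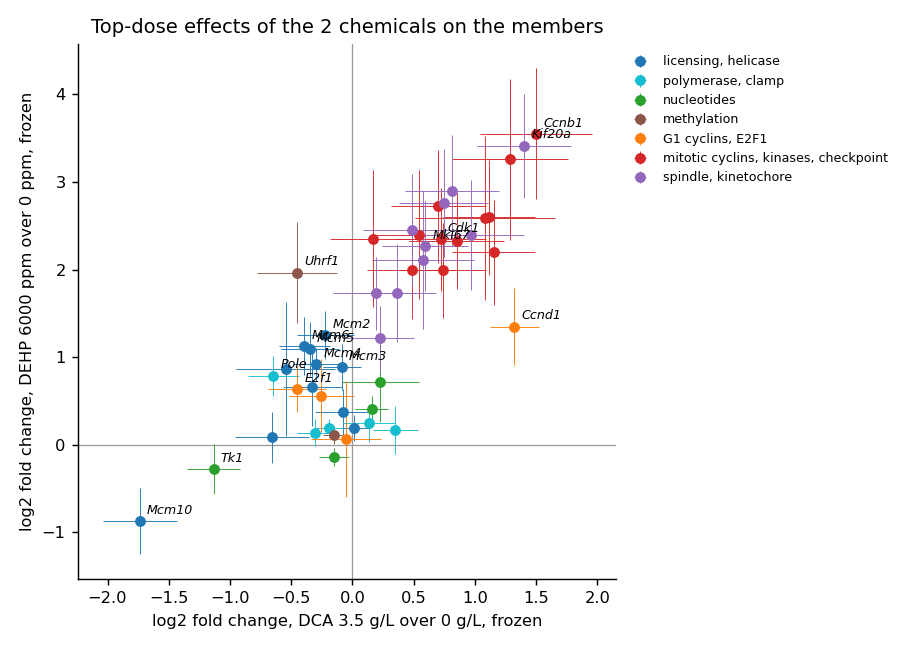
Log2 fold change of each member at DEHP 6000 ppm over 0 ppm (y axis) and at DCA 3.5 g/L over 0 g/L (x axis), both in frozen liver, coloured by role with SE bars. Mcm2 to Mcm6 and Pole lie above 0 on the DEHP axis and below 0 on the DCA axis, Mcm10 and Tk1 lie below 0 on both, while Kif20a and Ccnb1 are positive on both.

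Other genes of these pathways, from lists of 36 replication genes and 60 mitosis genes that are no members, were read in the same fits. In frozen liver at DEHP 6000 ppm 26 of 55 other mitosis genes rose and none fell, and 6 of 34 other replication genes rose, beside 7.05% of all genes. Esco2, a cohesin acetyltransferase, rose by 2.99 ± 0.60 on the log2 scale (edgeR, adjusted p = 0.00358), and Spc25, of the outer kinetochore, by 1.96 ± 0.40 (edgeR, adjusted p = 0.00379). Rpa1, which binds single-stranded DNA, rose by 0.42 ± 0.09 (edgeR, adjusted p = 0.00651) and Dbf4, the activator of the kinase that fires origins, by 1.14 ± 0.30 (edgeR, adjusted p = 0.0194). In FFPE liver at 6000 ppm 19 of 49 other mitosis genes and 4 of 32 other replication genes rose, beside 7.94% of all genes. At DCA 2 g/L 34 of 58 other mitosis genes and 5 of 35 other replication genes rose, beside 15.5% of all genes, so that the share of the replication genes was near that of all genes. At 3.5 g/L 12 of 58 and 3 of 35 rose, beside 21.9% of all genes, and 3 of 35 replication genes fell, beside 21.1%, shares that were near or below those of all genes. Between 3.5 and 2 g/L, 7 of 35 other replication genes fell, beside 5.13% of all genes, and 1 rose. Those that fell included Pold1, a polymerase subunit, with a log2 fold change of -1.15 ± 0.24 (edgeR, adjusted p = 0.00292), and Rpa2 with -0.93 ± 0.18 (edgeR, adjusted p = 0.00178). In the same comparison 2 of 58 other mitosis genes fell.

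Inhibitors of the cycle and upstream genes were read in the same fits. Of 14 cell cycle inhibitors and pocket proteins tested at 6000 ppm in frozen liver, Tob1 rose, by 0.69 ± 0.21 on the log2 scale (edgeR, adjusted p = 0.0447), and none fell. This 1 of 14 was near the 7.05% of all genes that rose. Cdkn1a, which encodes the p21 inhibitor, was not called at any dose of DEHP, where its log2 fold change at 6000 ppm in frozen liver was 0.14 ± 0.46, or at any dose of DCA in frozen liver. Myc rose at 1500 ppm in frozen liver by 2.91 ± 0.82 (edgeR, adjusted p = 0.0436) and was not called at 6000 ppm, at 1.33 ± 0.82. Egfr, the receptor for several growth factors of hepatocytes, fell by 1.46 ± 0.44 on the log2 scale at 6000 ppm in frozen liver (edgeR, adjusted p = 0.0398). With DCA at 3.5 g/L, Wee1, the kinase that holds Cdk1 inactive, rose by 2.19 ± 0.30 on the log2 scale (edgeR, adjusted p = 2.17e-06), Cdkn1b fell by 0.52 ± 0.09 (edgeR, adjusted p = 7.98e-05) and E2f7, a repressor of E2F targets, fell by 1.17 ± 0.25 (edgeR, adjusted p = 0.000582). Of 20 other cyclins, cyclin-dependent kinases and E2F factors, 3 rose and 3 fell at 3.5 g/L, below the 21.9% and 21.1% of all genes. Among them E2f3, an activator of S phase genes, rose by 0.71 ± 0.12 (edgeR, adjusted p = 6.01e-05). The immediate early gene Atf3 rose by 2.44 ± 0.26 at 3.5 g/L (edgeR, adjusted p = 4.29e-08).

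Markers of other liver cells were read beside these counts, and their part in the members' changes was not tested. For comparison, 652 of 13802 genes fell at DEHP 6000 ppm in frozen liver, 13.7% of all genes fell at DCA 2 g/L, 21.1% at DCA 3.5 g/L, and 5.13% fell between 3.5 and 2 g/L. Of all genes 7.05% rose at DEHP 6000 ppm, 15.5% at DCA 2 g/L and 21.9% at DCA 3.5 g/L, and marker lists with 1 riser were near or below these shares. At DEHP 6000 ppm in frozen liver none of 11 Kupffer cell markers passed edgeR's test, adjusted or unadjusted, and their summed level ran from 259 to 404 CPM, against 198 to 323 CPM in controls. Of the hepatocyte markers 4 of 9 fell, with a sum from 65951 to 78119 CPM, against 90007 to 102679 CPM, and none of 7 red cell markers was called, with a sum from 134 to 289 CPM, against 197 to 288 CPM. The hepatocyte sum was lower in DCA frozen liver as well. It ran from 73483 to 106698 CPM at 2 g/L and from 81567 to 102811 CPM at 3.5 g/L, against 113168 to 138232 CPM at 0 g/L. With DCA at 3.5 g/L, 9 of 11 Kupffer cell markers fell, with a sum from 170 to 259 CPM, against 319 to 438 CPM at 0 g/L, and between 3.5 and 2 g/L 7 of 11 fell. In DCA and DEHP frozen liver and in DEHP FFPE liver no marker of these lists was at 0 in every library. Among the red cell markers, which include those of dividing progenitors, 6 of 7 fell at 3.5 g/L and 1 rose, with a sum from 475 to 835 CPM, against 553 to 1447 CPM at 0 g/L. At 2 g/L 5 of 7 red cell markers fell and 1 rose, and 1 of 11 Kupffer cell markers fell. Of the stellate cell and fibroblast markers 1 of 10 rose and 1 fell at DEHP 6000 ppm, while at DCA 2 and 3.5 g/L 5 and 7 of 10 fell. Of the endothelial markers 1 of 10 rose at DEHP 6000 ppm, and 2 and 4 of 10 fell at DCA 2 and 3.5 g/L, the first near the share of all genes. Few of the other markers could be tested, and of these 1 of 3 lymphocyte markers fell at DEHP 6000 ppm, while both neutrophil markers were lower at DCA 3.5 than at 2 g/L.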

How the data were processed

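The authors sequenced total RNA of each liver, and per the submitters' processing notes reads were handled with CASAVA, STAR 2.4 and RSEM on mm10. The authors deposited RSEM expected counts per gene, which were rounded to whole numbers here, and FPKM values, which were used only to describe levels per gene length. Where a study had a second deposited count table, it served as an alternative.

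Genes were kept by edgeR's filterByExpr with a minimum count of 10, scaled by TMM and tested by the quasi-likelihood test of edgeR 4.0.16 (R 4.3.3, limma 3.58.1) in 1 fit per study and preparation, with DESeq2 1.42.0 as an alternative. P-values were adjusted by Benjamini-Hochberg over all genes tested, with a threshold of 0.05. Shares of all genes are those of the reported fits at this threshold. None is given for unadjusted p or for alternative fits. Standard errors were taken from the log2 fold change and its F statistic. CPM values use the scaled library sizes. Sequencing run and lane stand for marks in the library names of the deposited counts, and whether every such mark is a run or lane is not given. Replicates are separate animals, so the fits of doses set a difference against the spread between animals of a dose. The fits over both preparations set it against the spread of differences within animals. The scripts were tested on simulated counts.

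Same-named frozen and FFPE libraries come from the same animal, and fits over both preparations held the animal as a replicate block. Deviations from the dose means correlated best with the own partner in 14 of 16 DEHP animals (median r = 0.536 over 12333 genes) and in 12 of 24 DCA animals (median r = 0.0283 over 12144 genes). The comparison of the chemicals used 1 fit over both frozen studies.

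The members and lists were chosen with earlier results of these data known. The members whose libraries are given were the tested member of smallest adjusted p at DEHP 6000 ppm in each of the 7 role groups, with Pcna, Ccnd1, Mki67, Top2a and Cdk1. They are given for every DEHP frozen library, for part of the genes in FFPE liver, and as lowest, median and highest value per dose in DCA frozen liver. Of the other pathway lists, the 2 called genes of smallest adjusted p per comparison, Cdkn1a and Myc were named. Alternatives were other size factors, no filter, a stricter filter (1 CPM and a count of 10), DESeq2, sequencing run as a term, the other count table, only the compared groups, each animal left out, and no replicate block. The number of per-sample columns not used was 0 in the tables that were read, and the deposited RPKM tables were not used here. Promoter sequences came from RefSeq on GRCm38.p6, and no protein sequence was used.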

Additional observations from a re-analysis of the deposited data

Results flagged for a closer look

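Of 156 groups of 4 or 6 libraries, 18 had 1 library far from the others by Dixon's criterion, which chance gives in about 1 of 20 groups, and these groups share genes and animals. All values are CPM. Animal 44A of 6000 ppm stood above its group in frozen liver for the summed mitosis members, at 243 against 51.0 in the nearest animal, and for Ccnb1 at 13.5 against 2.20, Cdk1 at 9.93 against 1.99, Top2a at 23.8 against 5.79, Mki67 at 52.9 against 12.3 and Kif20a at 18.5 against 3.21. In its FFPE library the same animal stood out for Ccnb1 at 6.68 against 0.819, Cdk1 at 5.56 against 1.08, Kif20a at 11.2 against 3.11, Rrm1 at 11.5 against 7.97 and Uhrf1 at 2.04 against 0.959.

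Animal 35A of 3000 ppm stood below its group, with a summed mitosis level of 23.2 against 47.7 in the nearest animal and Top2a at 2.96 against 6.84 in frozen liver, and with Mki67 at 4.82 against 10.8 in FFPE liver. Animal 3A of 1500 ppm was high for summed Mcm2 to Mcm7 in frozen liver, at 41.4 against 28.9, and for Uhrf1 in FFPE liver, at 1.78 against 0.657. The others were Pole in FFPE liver of 8C, 6000 ppm, at 11.9 against 6.19, and Rrm1 in FFPE liver of 71A, 3000 ppm, at 9.45 against 7.20.

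The effects of DEHP at 6000 ppm and DCA at 3.5 g/L differed by an edgeR interaction contrast in 8 members, with log2 differences of 2.41 for Uhrf1 (adjusted p = 0.00909), 1.54 for Mcm6 (0.00696), 1.48 for Mcm2 (0.00718), 1.45 for Mcm5 (0.0108), 1.45 for Pole (0.00236), 1.22 for Mcm4 (0.00299), 1.10 for E2f1 (0.0336) and 0.99 for Mcm3 (0.0196). Dose, route, exposure time, year and run cannot be told apart from the chemical in this difference, nor can lane from the DCA effect.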

How the results depend on the processing

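Counts of members called moved by more than 1.5 times in the following fits, and the cause was not tested. The shares of all genes called in these fits are not given here. In DEHP frozen liver at 1500 ppm (5 in the reported fit) DESeq2 called 14, a run term left 1, the other deposited counts gave 3 and a fit of the compared groups alone 10. At 3000 ppm (1) no filter and a run term called 0, DESeq2 6 and the compared groups alone 10. At 6000 ppm (25) a run term called 1 and the compared groups alone 13. In FFPE liver DESeq2 called 13 at 3000 ppm (6), and the compared groups alone 12 at 6000 ppm (20). At DCA 2 g/L (26) 17 were called without the shallow lane, a choice made after seeing the data, as was the fit of 1 g/L FFPE liver within 1 run, which called 0 of 12 tested. DESeq2 called 14 for DEHP against DCA (8). Between preparations, DEHP controls (13) gave 6 with no replicate block, and DCA controls (4) gave 7 with no replicate block, 7 with a stricter filter and 1 with DESeq2. The difference between preparations in the effect of 6000 ppm was 0 with and with no replicate block.

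Leaving out 1 animal gave 1 to 3 calls at 1500 ppm, 0 to 4 at 3000 ppm and 7 to 28 at 6000 ppm in DEHP frozen liver, and 3 to 12, 2 to 8 and 9 to 24 in FFPE liver. It gave 0 to 1 at DCA 1 g/L, 14 to 31 at 2 g/L, 7 to 15 at 3.5 g/L and 6 to 11 for 3.5 against 2 g/L in frozen liver. The range was 5 to 10 for DEHP preparations, 1 to 4 for DCA preparations and 5 to 18 for DEHP against DCA. No fold change of a called member reversed: 1828 gene values kept their call and 426 lost it. Some members were called under every alternative in which they were tested, and an alternative whose filter removed a member was not counted for it. In DEHP frozen liver this was Kif20a at 6000 ppm. In DEHP FFPE liver they were Mki67 at 1500 ppm, Mcm4 and Mki67 at 3000 ppm and 8 members at 6000 ppm. Of these 8, Bub1b was not among those called in the fit of the compared groups alone. In DCA frozen liver they were 10 at 2 g/L, 7 at 3.5 g/L, and Dnmt1, Mcm3, Mcm4, Mcm5 and Uhrf1 for 3.5 against 2 g/L. For DEHP against DCA they were Mcm2, Mcm4, Mcm6, Pole and Uhrf1, between DEHP preparations Birc5, Mcm7, Pcna and Tyms, and between DCA preparations Mcm7. Lane could not be fitted for DCA 2 or 3.5 g/L against 0 g/L. Depth left 2 members testable in DCA FFPE liver.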

Other observations

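Some genes outside the 49 moved in ways the member list does not cover. Among mitosis genes of the wider list, Ckap2, which binds spindle microtubules, rose by 3.83 ± 0.77 at 1500 ppm (edgeR, adjusted p = 0.00768) and 4.62 ± 0.75 at 6000 ppm (edgeR, adjusted p = 0.000706) in FFPE liver, as log2 fold changes with SE. Cep55, which acts when daughter cells separate, rose by 2.86 ± 0.64 at 3000 ppm in FFPE liver (edgeR, adjusted p = 0.00878). Spc25 rose at all 3 DEHP doses in both preparations, by between 1.73 ± 0.40 at 1500 ppm and 1.96 ± 0.40 at 6000 ppm in frozen liver. At 3000 ppm in frozen liver 4 of 14 inhibitors and pocket proteins rose, beside 8.17% of all genes, and 1 fell. Among the risers were Btg1, which slows proliferation, at 0.71 ± 0.19 (edgeR, adjusted p = 0.0191) and Ccng2, cyclin G2, at 1.08 ± 0.30 (edgeR, adjusted p = 0.0226). Cdkn1b fell by 0.60 ± 0.18 at 6000 ppm in FFPE liver (edgeR, adjusted p = 0.0409), and Egfr fell at every DEHP dose in both preparations, by 1.45 ± 0.45 to 1.85 ± 0.45 on the log2 scale.

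In DCA frozen liver Egr1, an immediate early gene, rose by 3.00 ± 0.52 at 1 g/L (edgeR, adjusted p = 0.000779), where no member was called. Jun and Atf3 rose by 1.55 ± 0.28 and 1.63 ± 0.28 at 2 g/L (edgeR, adjusted p = 0.000163 and 0.0001), and Cdkn1c, an inhibitor of cyclin-dependent kinases, fell by 1.47 ± 0.35 (edgeR, adjusted p = 0.00268). Rfc2, a clamp loader subunit, rose by 0.56 ± 0.07 at 2 g/L (edgeR, adjusted p = 2.74e-06). Junb was lower at 3.5 than at 2 g/L, with a log2 fold change of -1.22 ± 0.32 (edgeR, adjusted p = 0.0162), while Wee1 was higher, at 1.13 ± 0.30 (edgeR, adjusted p = 0.0165). The effect on Atf3 was lower with DEHP than with DCA by a log2 difference of -2.34 ± 0.66 (edgeR, adjusted p = 0.0147), and that on Jun by -1.74 ± 0.50 (edgeR, adjusted p = 0.0183). The effect on Pole2, a second subunit of the leading-strand polymerase, was higher with DEHP by 1.77 ± 0.52 (edgeR, adjusted p = 0.0208). In DEHP controls E2f7 was higher in FFPE than in frozen liver by 1.72 ± 0.31 (edgeR, adjusted p = 0.000448), and Cdkn1a by 0.74 ± 0.18 (edgeR, adjusted p = 0.00358).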
